A study of Rattus norvegicus with 24 samples.

Results

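The lysosomal genes described here are 37 genes that encode cathepsins and other peptidases, glycosidases, enzymes that split lipids, sulfates or phosphates, soluble helper proteins and membrane proteins of the lysosome. They were taken as all probe sets whose gene symbol in the array annotation is one of these genes, which gave 45 probe sets for 36 of the 37 genes among 15923 on the array, since Npc1 had no probe set under its symbol in the annotation used. Kidney RNA came from male SHR-SP rats, the stroke-prone line of the spontaneously hypertensive rat, which carries inherited hypertension in every group. At 11 weeks of age the rats were randomized to the high salt and fat diet (HSF, 1% NaCl in the drinking water with chow of 24.5% fat) or to the normal diet (ND, powdered chow with water), for 2 or 8 weeks. The 4 groups were HSF at 2 weeks, ND at 2 weeks, HSF at 8 weeks and ND at 8 weeks, each with 6 animals and 1 array per animal. Salt and fat were given together and whole kidneys were ground, so neither the part of each nutrient nor a region of the kidney can be told apart.

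The lysosome is the acidic compartment in which cells break down material from endocytosis, phagocytosis and autophagy. Its soluble enzymes are made as precursors, carried there mostly by mannose 6-phosphate receptors and activated by the low pH that a proton pump, the V-ATPase, maintains. In the kidney, proximal tubule cells take filtered protein up through megalin and digest it in abundant lysosomes, and macrophages carry a lysosomal set of their own that is rich in cathepsins. Many lysosomal genes are known targets of the transcription factor TFEB, which binds sites built on the sequence CACGTG.

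Upstream sequences of 4 genes are shown because their results differ: Ctsl was lower on HSF at 2 weeks and higher at 8 weeks, Ctsd was called at 8 weeks as higher, Glb1 was called at 8 weeks as lower, and Lamp1 was not called. Each is the 250 bases before the annotated start, from RefSeq, build GRCr8, written 5′ to 3′ along the gene with CACGTG in capitals. They lie at chr17:769854-770103 on the plus strand for Ctsl, chr1:206968822-206969071 on the minus strand for Ctsd, chr8:122963468-122963717 on the plus strand for Glb1 and chr16:83075064-83075313 on the minus strand for Lamp1.
Ctsl: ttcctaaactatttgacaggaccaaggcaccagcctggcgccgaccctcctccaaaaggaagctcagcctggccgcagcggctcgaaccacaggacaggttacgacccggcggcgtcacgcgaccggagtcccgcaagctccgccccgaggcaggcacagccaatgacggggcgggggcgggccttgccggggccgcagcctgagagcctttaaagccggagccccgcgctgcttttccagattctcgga
Ctsd: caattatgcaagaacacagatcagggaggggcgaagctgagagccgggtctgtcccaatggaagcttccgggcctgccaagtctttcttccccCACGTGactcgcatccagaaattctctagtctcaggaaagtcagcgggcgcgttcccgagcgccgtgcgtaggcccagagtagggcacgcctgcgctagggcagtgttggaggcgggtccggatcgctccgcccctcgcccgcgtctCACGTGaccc
Glb1: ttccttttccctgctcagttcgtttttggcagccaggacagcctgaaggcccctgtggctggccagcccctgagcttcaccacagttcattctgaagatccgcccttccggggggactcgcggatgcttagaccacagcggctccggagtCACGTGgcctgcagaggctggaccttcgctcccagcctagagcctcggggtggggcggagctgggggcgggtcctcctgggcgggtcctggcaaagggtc
Lamp1: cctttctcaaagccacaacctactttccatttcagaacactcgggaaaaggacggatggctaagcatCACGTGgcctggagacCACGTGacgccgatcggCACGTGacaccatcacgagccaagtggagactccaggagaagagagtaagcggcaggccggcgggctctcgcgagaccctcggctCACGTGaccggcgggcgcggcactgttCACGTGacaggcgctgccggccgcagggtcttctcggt
The Lamp1 stretch held the core 5 times, that of Ctsd 2 times and that of Glb1 1 time, and these letters were not in the Ctsl window. Promoters from 250 bases before to 50 after the start were matched for 28 of the 36 genes. CACGTG, which reads the same on both strands, was in 5 of the 28 (17.9%, in Cd63, Ctsd, Gaa, Glb1 and Lamp1), beside 1943 of 27457 genes in the table (7.08%). The form TCACGTG on either strand, which overlaps it, was in 4 of the 28 (14.3%), beside 3.58% of the table. A longer form of 10 bases, the core with further set bases on both sides, was in 0 of the 28, beside 0.28% of the table. That form is too rare for 28 genes to show whether it is scarce among them. Among the 5 genes with the core, Ctsd was called higher and Glb1 lower at 8 weeks, and Cd63, Gaa and Lamp1 were called in neither diet comparison. The calls of Ctsd and Glb1 ended in some other settings, given below. The part of the motif in these results was not tested. Ctsb, Arsa, Arsb, Asah1, Hexa, Laptm4b, Ppt1 and Psap were not matched.

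Signals are linear array values. Differences were taken on log2(signal + 7.21), which shrinks the changes of dim genes, and are given ± SE. Of the 45 probe sets, 43 passed the filter on low signals, and all 36 genes kept at least 1, the brightest of which stands for the gene. Ctsk and Scarb2 were dim: they passed the filter signal on 8 and 10 of 24 arrays, of which 5 each were HSF arrays at 8 weeks. Without that group neither would have reached the 6 arrays that the filter asked for. They were thus tested only because of the group in which they were high. Array medians lay between 68.7 and 78.7. At the dim end ND arrays 1 and 2 of the 8-week set stood apart: their first percentiles were 2.4 and 3, and those of the remaining 22 arrays 0.7 to 1.2. For lysosomal genes called at 8 weeks by the brightest probe set, calls that ended without both arrays are named. Calls at 8 weeks of genes outside the 36, and of second probe sets, are given only with them. A gene was called where limma gave an adjusted p under 0.05 over all 10208 probe sets tested.

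After 2 weeks the lysosomal genes called lower on HSF were all peptidases. Of the 36 genes, 6 fell, 0 rose, and 30 were not called, and the 6 were Ctsa, Ctsb, Ctsc, Ctsh, Ctsl and Lgmn. Over all probe sets tested, 4.19% were called lower and 4.55% higher. The median difference of the 36 genes was -0.06, beside 0.02 over all probe sets tested, and at an unadjusted p under 0.05 the count was 9 lower and 1 higher. Among the 9 cathepsins 5 fell, with a median difference of -0.32. Of the 2 other peptidases 1 fell. Called were 0 of the 7 glycosidases and 0 of the 8 lipid, sulfate and phosphate enzymes. Likewise 0 of the 4 soluble non-enzymes and 0 of the 6 membrane proteins were called. These roles are too small for 0 calls to show that the fall was confined to peptidases. At an unadjusted p under 0.05 in limma, 2 membrane proteins and 1 soluble non-enzyme were lower. By the same threshold 1 lipid enzyme was higher.

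Lgmn, the asparaginyl endopeptidase legumain, which processes other lysosomal enzymes, had signals of 1973 to 2612 (median 2265) on HSF, against 2892 to 3181 (median 2961) on ND. Every HSF kidney lay below every ND kidney. The difference was -0.40 ± 0.07 (limma, adjusted p = 0.000706), so the level fell by 24.2%. Ctsb, a cysteine cathepsin with broad substrate range, had signals of 1690 to 2116 (median 1927) on HSF, against 2257 to 3022 (median 2474) on ND. The groups again did not overlap, and the difference was -0.43 ± 0.08 (adjusted p = 0.00161). Lgmn and Ctsb kept their calls in all 40 other settings.

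Ctsc, a dipeptidyl peptidase that activates serine proteases of immune cells, had signals of 359 to 602 (median 483) on HSF, against 624.5 to 698 (median 675) on ND. The groups did not overlap (-0.48 ± 0.10, adjusted p = 0.00165). A second probe set of Ctsc gave -0.17 ± 0.11 and was not called (adjusted p = 0.349). Ctsl, the endopeptidase cathepsin L, had signals of 2048 to 2384 (median 2207) on HSF, against 2655 to 3060 (median 2727) on ND. Every HSF kidney was again below every ND kidney, with a difference of -0.32 ± 0.07 (adjusted p = 0.00379), and the second probe set gave -0.39 ± 0.11 (adjusted p = 0.0235). Ctsa, a carboxypeptidase that also shields the enzymes of Glb1 and Neu1 from breakdown, had signals of 2584 to 3310.4 (median 2857) on HSF, against 3383 to 4500 (median 3559) on ND. The groups did not overlap (-0.35 ± 0.08, adjusted p = 0.00456). Ctsh, an aminopeptidase, had signals of 2472 to 3308 (median 2685) on HSF, against 2998 to 3988 (median 3416) on ND. These ranges overlapped, although 4 of 6 HSF kidneys were below the lowest ND kidney (-0.34 ± 0.08, adjusted p = 0.00683). The 5 genes without overlap stand beside 2.17% of all probe sets tested that were lower without overlap.

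**Figure D1:**
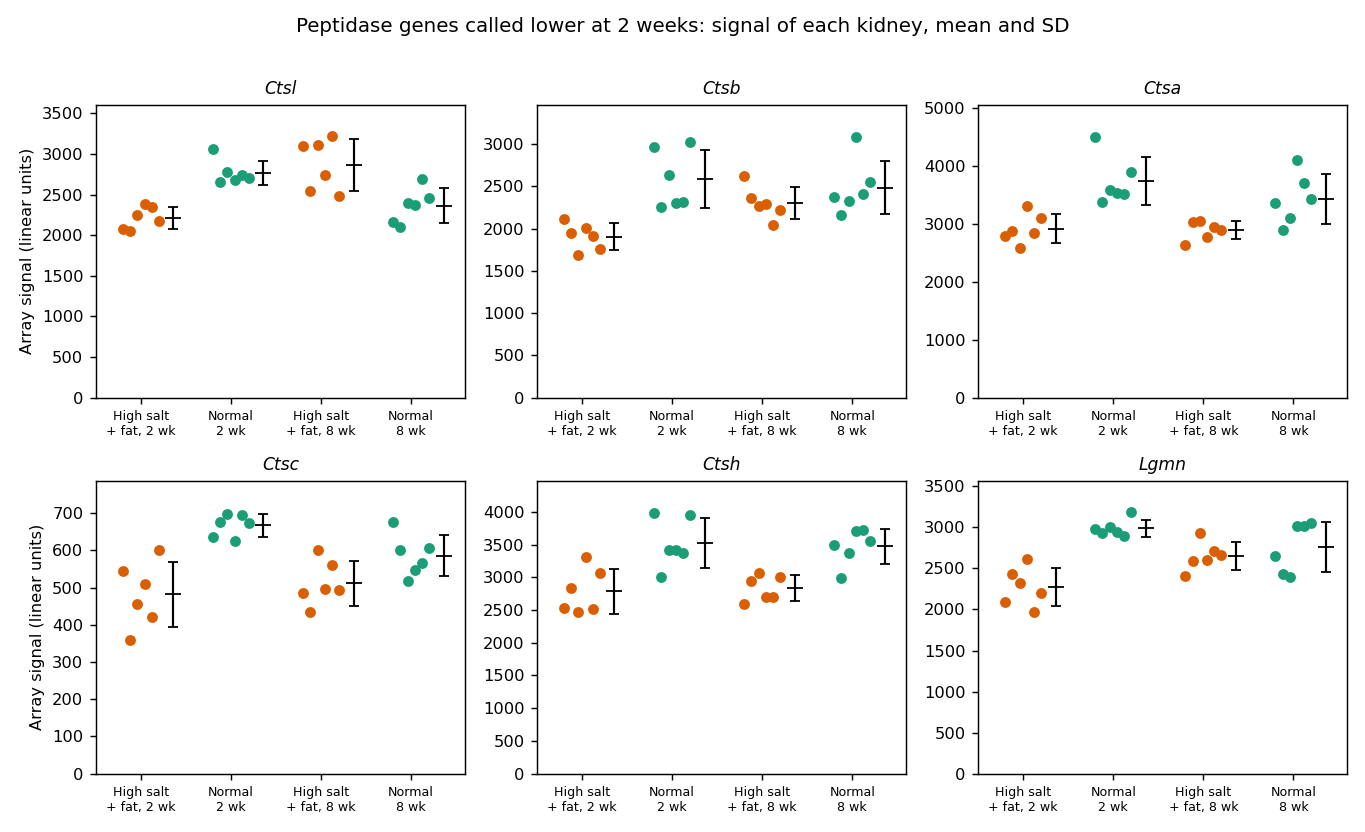
Array signal (linear units, y axis) of each kidney for the 6 peptidase genes that fell at 2 weeks, by diet and time, with points for kidneys and a bar for the mean and SD of 6. At 2 weeks the HSF points of Ctsl, Ctsb, Ctsa, Ctsc and Lgmn all lie below the ND points, whereas at 8 weeks the Ctsl points on HSF lie mostly above those on ND.

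Some of these calls depended on scale or array quality. Quantile normalization ended the calls of Ctsa (-0.16, adjusted p = 0.113), Ctsh (-0.17, adjusted p = 0.0833) and Ctsl (-0.18, adjusted p = 0.0775), and the spike-in level as a covariate ended these as well. The 3' to 5' ratio of the GAPDH control probe sets, a measure of RNA quality, was 1.22 ± 0.09 on HSF and 1.09 ± 0.07 on ND (SD, n = 6 each), and as a covariate it ended the calls of Ctsa, Ctsc, Ctsh and Ctsl (adjusted p = 0.0501 to 0.0612). An index of fat-tissue genes as a covariate ended those of Ctsa and Ctsc (adjusted p = 0.0718 and 0.0627). Markers of the proximal tubule moved with the peptidases: 9 of 13 fell, all 13 differences were negative, and the summed marker signal was 28535.5 to 36491 on HSF, against 39845 to 42503 on ND. The 9 included Hnf4a, a transcription factor of that segment (-0.74 ± 0.13, adjusted p = 0.000558), and Ass1, an enzyme of arginine synthesis (-0.44 ± 0.08, adjusted p = 0.000851). Fat-tissue markers were also lower, with summed signals of 106.8 to 280.3 on HSF, against 294.1 to 3862 on ND, and all 3 tested fell. The part of these cells in the peptidase result was not tested, and in whole tissue fewer cells of a type and less RNA per cell cannot be told apart. Of the macrophage and myeloid markers 0 of 13 tested were called, and 3 were lower at an unadjusted p under 0.05.

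The other 4 cathepsins were not called at 2 weeks. Ctsd, the aspartic protease cathepsin D, had a difference of 0.04 ± 0.09 (adjusted p = 0.845), Ctss 0.17 ± 0.10 (adjusted p = 0.32), Ctsz -0.13 ± 0.12 (adjusted p = 0.567) and Ctsk 0.23 ± 0.29 (adjusted p = 0.675). The 7 glycosidases, which trim sugars from glycoproteins and glycolipids, ran from -0.18 in Neu1 to 0.14 in Gaa, with a median of -0.02. The 8 lipid, sulfate and phosphate enzymes ran from -0.24 in Asah1, the acid ceramidase, to 0.13 in Smpd1, the acid sphingomyelinase. Asah1 had a second probe set at 0.11 ± 0.22, of opposite sign, and for Arsb, a sulfatase, the probe sets gave 0.02 ± 0.11 and -0.25 ± 0.09. Neither gene was called by either probe set.

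The brightest uncalled genes were membrane proteins and soluble helpers. Lamp1, a heavily glycosylated protein of the lysosomal membrane, had signals of 1844 to 2429 (median 2012) on HSF, against 2144 to 2402 (median 2280) on ND at 2 weeks, and its difference was -0.14 ± 0.07 (adjusted p = 0.186). Its partner Lamp2, which also serves chaperone-mediated autophagy, gave -0.13 ± 0.08. Laptm4a, a small membrane protein with several spans, gave -0.12 ± 0.05 (adjusted p = 0.165), and Cd63, a tetraspanin, gave -0.09 ± 0.07. Psap, the precursor of the saposins that help lipid enzymes reach their substrates, gave -0.20 ± 0.08 (adjusted p = 0.142). Grn, progranulin, gave 0.00 ± 0.09. At 8 weeks the differences were -0.10 for Lamp1, -0.17 for Lamp2, 0.09 for Laptm4a, 0.10 for Cd63, -0.01 for Psap and 0.07 for Grn, and all 6 were uncalled at both times.

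After 8 weeks the pattern was mixed. On HSF 6 of the 36 genes rose (Ctsd, Ctsk, Ctsl, Ctss, Npc2 and Scarb2), 3 fell (Ctsh, Glb1 and Neu1), and 27 were not called. Over all probe sets tested 5.63% were called higher and 3.51% lower. Ctsk and Scarb2 passed the filter only with the HSF arrays at 8 weeks, so their calls are not support for a rise of the set. The median difference was -0.03, beside -0.00 over all probe sets, and at an unadjusted p under 0.05 the count was 8 each way. By role, 4 cathepsins rose and 1 fell, 2 glycosidases fell, and 1 soluble non-enzyme and 1 membrane protein rose. Of the 8 lipid, sulfate and phosphate enzymes 0 were called by limma, and 0 had an unadjusted p under 0.05, with differences of -0.15 in Acp5 to 0.10 in Ppt1.

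Ctss, a cysteine cathepsin of antigen-presenting cells that cuts the invariant chain, had signals of 249.8 to 361.9 (median 319) on HSF, against 198 to 241 (median 232) on ND at 8 weeks. Every HSF kidney was above every ND kidney, with a difference of 0.49 ± 0.10 (adjusted p = 0.00236). Npc2, a soluble protein that binds cholesterol and hands it on for export, had signals of 814 to 935 (median 849) on HSF, against 664 to 741 (median 714) on ND. These groups did not overlap either (0.28 ± 0.06, adjusted p = 0.00171). Ctss and Npc2 were the 2 members higher without overlap, a pattern that 2.21% of all probe sets tested showed. Both kept their calls in every setting run.

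Ctsd had signals of 1903 to 2635 (median 2259) on HSF, against 1528 to 2120.0 (median 1685) on ND. Of 6 HSF kidneys, 5 were above the highest ND kidney (0.37 ± 0.09, adjusted p = 0.00691). Ctsl had signals of 2479 to 3220.3 (median 2917) on HSF, against 2094 to 2695 (median 2384) on ND. Here 4 of 6 HSF kidneys were above the highest ND kidney (0.28 ± 0.07, adjusted p = 0.0134), and the second probe set gave 0.37 ± 0.11 (adjusted p = 0.0294).

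The 2 dim genes had wide errors. Ctsk, the collagen-degrading cathepsin of osteoclasts, had signals of 39.2 to 61.6 (median 56.9) on HSF, against 10.7 to 40.6 (median 22.8) on ND. All but 1 HSF kidney lay above the highest ND kidney (1.06 ± 0.29, adjusted p = 0.0193). Scarb2, the membrane receptor that carries glucocerebrosidase to the lysosome, had signals of 46.7 to 95.1 (median 79.9) on HSF, against 23.6 to 63 (median 48.4) on ND. Its ranges overlapped, and the difference was 0.60 ± 0.19 (adjusted p = 0.044). Ctsk lost its call without ND array 1 at 8 weeks (0.92), and Scarb2 lost its call in 11 of the 24 fits that left out 1 array, at 0.45 to 0.63. The arrays were 3 and 4 of ND at 2 weeks, 3 to 6 of HSF at 8 weeks, and 1, 2, 3, 4 and 6 of ND at 8 weeks. Ctsk lies on rat chromosome 2 with 1 gene between it and Ctss in RefSeq GRCr8.

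Without ND arrays 1 and 2 at 8 weeks, the calls of Ctsd (0.28, adjusted p = 0.0732), Ctsl (0.20, adjusted p = 0.113), Ctsk (0.81, adjusted p = 0.127) and Scarb2 (0.44, adjusted p = 0.187) ended, which left 2 members higher. The spike-in level as a covariate ended the same 4. Ctsl and Scarb2 were also not called where the fit held only the groups compared (adjusted p = 0.0552 and 0.0809). Scarb2 lost its call too with no filter (adjusted p = 0.0654) and with a pseudocount of 1 (adjusted p = 0.0521). Macrophage and myeloid markers moved with the genes that rose. Of 13 tested 5 rose and 0 fell, namely Gpnmb (1.21 ± 0.17, adjusted p = 2.9e-05), C1qa, a complement component (0.57 ± 0.09), Cd68, a lysosomal membrane protein of macrophages (0.90 ± 0.14, adjusted p = 0.000106), Laptm5 (0.73 ± 0.15) and Lyz2, lysozyme (0.32 ± 0.08). The summed signal of the 15 markers on the array was 3898 to 5294 on HSF, against 3223 to 3897 on ND, so the groups only just failed to overlap, and 0 of the 15 were at 0 on any array. Itgam and Ptprc, markers of that list, were below the filter. The part of these cells in the lysosomal rise was not tested. Of the 2 osteoclast markers on the array 0 were called at 8 weeks.

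**Figure D2:**
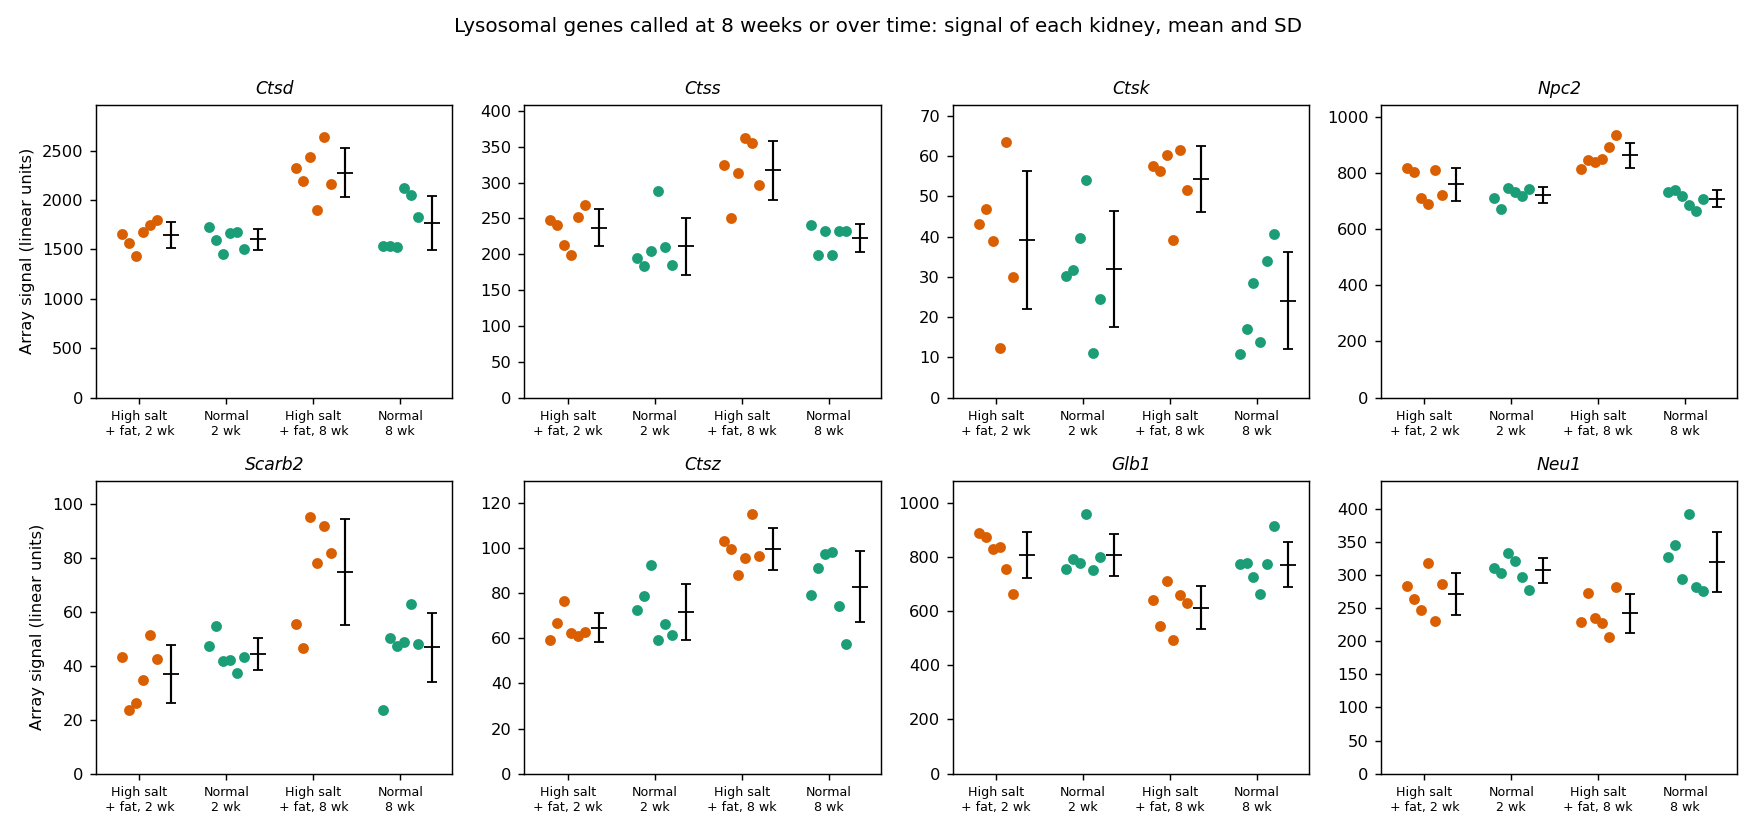
Array signal (linear units, y axis) of each kidney for 8 lysosomal genes called at 8 weeks or over time, by diet and time, with points for kidneys and a bar for the mean and SD of 6. At 8 weeks the HSF points of Ctss and Npc2 lie above every ND point, and those of Glb1 and Neu1 lie mostly below.

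The glycosidases leaned the other way at 8 weeks. All 7 differences were negative, from -0.39 to -0.01 with a median of -0.07, and 2 of the 7 fell. Hexa, Gusb, Manba and Gaa were small, at -0.01, -0.03, -0.05 and -0.07. Among all probe sets tested 49.7% of differences were positive at 8 weeks. At 2 weeks 6 of the 7 glycosidases were already negative. Neu1, the lysosomal sialidase, had signals of 207 to 282 (median 231) on HSF, against 275 to 392 (median 311) on ND. Of 6 HSF kidneys, 5 were below the lowest ND kidney (-0.39 ± 0.09, adjusted p = 0.00712). Its second probe set gave -0.20 ± 0.13 and was not called (adjusted p = 0.372). Glb1, the acid beta-galactosidase, had signals of 494.6 to 710.4 (median 634) on HSF, against 662 to 913 (median 774) on ND. Again 5 of 6 HSF kidneys were below the lowest ND kidney (-0.33 ± 0.09, adjusted p = 0.0171). The call of Glb1 ended without ND arrays 1 and 2 (-0.32, adjusted p = 0.0628) and with the spike-in level as a covariate (-0.31, adjusted p = 0.0799).

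Ctsh was called lower at both times. At 8 weeks its signals were 2591 to 3070 (median 2821) on HSF, against 2989 to 3719 (median 3520.3) on ND, and 4 of 6 HSF kidneys were below the lowest ND kidney. The difference was -0.29 ± 0.08 (adjusted p = 0.0188), and the call ended without HSF array 1 (-0.27). Ctsa, the partner protein of Glb1 and Neu1, had signals of 2638 to 3048 (median 2919) on HSF, against 2899 to 4096 (median 3394) on ND. Its difference was -0.24 ± 0.08, just short of the threshold (adjusted p = 0.0504). Ctsa was called lower in 12 of 40 other settings, among them quantile normalization (-0.26, adjusted p = 0.00848) and the fit without ND arrays 1 and 2 (-0.30, adjusted p = 0.0302). Ctsc gave -0.20 ± 0.10 (adjusted p = 0.21), but its second probe set was called at -0.37 ± 0.11 (adjusted p = 0.0278), so the probe sets of Ctsc were called at different times. Ctsb had signals of 2045 to 2625 (median 2276) on HSF, against 2164.5 to 3081 (median 2393) on ND, and Lgmn had 2401.5 to 2935 (median 2634), against 2397.5 to 3048 (median 2832). Both pairs of ranges overlapped, with differences of -0.11 ± 0.08 for Ctsb and -0.05 ± 0.07 for Lgmn. Of the proximal tubule markers 6 of 13 fell at 8 weeks and all 13 differences were negative, with summed signals of 29395.5 to 34378 on HSF, against 33982 to 43501 on ND.

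**Figure D3:**
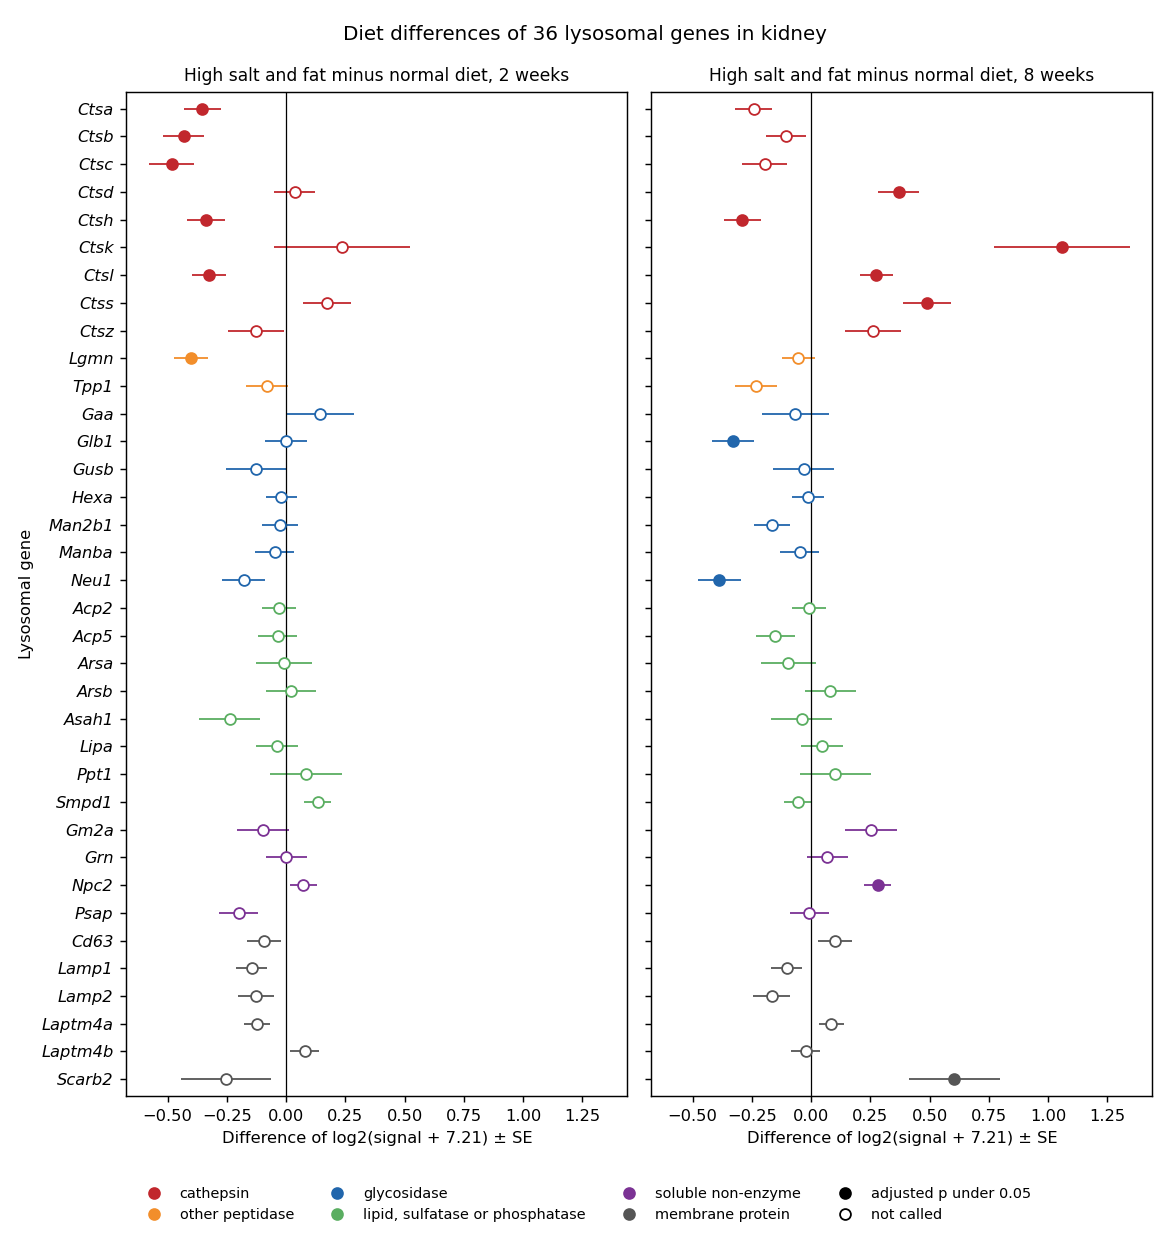
Difference of log2(signal + 7.21), HSF minus ND, with its SE (x axis) for the 36 lysosomal genes ordered by role (y axis), at 2 weeks on the left and 8 weeks on the right. Filled points passed the adjusted p threshold: 6 genes at 2 weeks, all lower, and 9 at 8 weeks, of which 6 were higher and 3 lower.

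**Figure D4:**
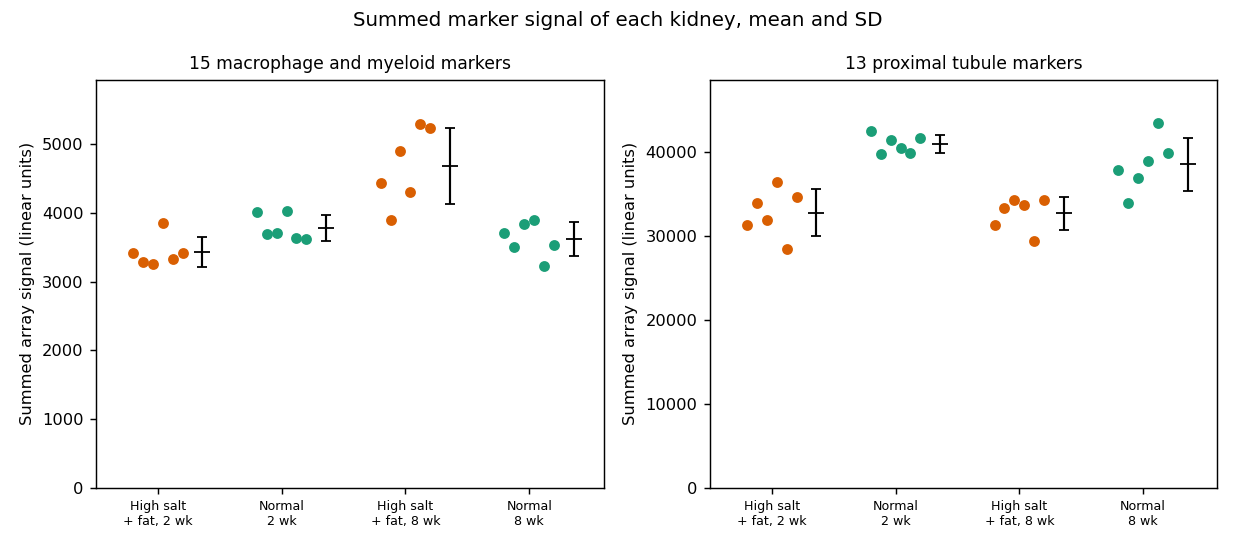
Summed array signal (linear units, y axis) of each kidney for 15 macrophage and myeloid markers and 13 proximal tubule markers, by diet and time, with a bar for the mean and SD of 6. At 8 weeks the HSF sums of macrophage markers lie from 3898 upward and the ND sums reach 3897, and the tubule sums at 2 weeks lie at or below 36491 on HSF and at or above 39845 on ND.

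Ctsl was the 1 member whose diet difference itself differed between the times. The interaction, the difference at 8 weeks minus that at 2 weeks, was 0.60 ± 0.10 (adjusted p = 0.00609), and its second probe set gave 0.75 ± 0.15 (adjusted p = 0.0170). Over all probe sets tested 0.343% had a higher call in this test, and the median of the 36 genes was 0.08, beside -0.02. Ctsl was lower on HSF at 2 weeks and higher at 8 weeks, so that its signal crossed that of the ND kidneys. Both diets enter this term: from 2 to 8 weeks Ctsl gave 0.37 ± 0.07 on HSF and -0.23 ± 0.07 on ND, the latter not called. The interaction call held in each of the 24 fits that left out 1 array. It ended with the spike-in level as a covariate (0.40, adjusted p = 0.288), and that level itself ran opposite ways, at -0.43 to 0.07 on HSF against 0.08 to 0.24 on ND at 2 weeks, and 0.01 to 0.19 on HSF against -0.44 to 0.26 on ND at 8 weeks. The part of this technical level in the result was not tested.

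By the brightest probe set of each gene the 9 cathepsins had positive interactions, from 0.05 in Ctsh to 0.82 in Ctsk. Of these 1 was called and 6 had an unadjusted p under 0.05, and 47.1% of all probe sets tested were positive. Ctsk passed the filter only with the HSF arrays at 8 weeks, so its sign is not support for this count. The next highest value was 0.60 in Ctsl. The probe sets of Ctsc differed in sign, at 0.29 ± 0.13 for the brighter and -0.20 ± 0.15 for the other. The signs of Ctsa and Ctsh turned with quantile normalization (-0.10 and -0.16) and with the spike-in level as a covariate (-0.057 and -0.13), and that of Ctsh turned without ND arrays 1 and 2 at 8 weeks (-0.0030). Lgmn gave 0.35 ± 0.10 (adjusted p = 0.148), Ctsb 0.33 ± 0.12 (adjusted p = 0.269) and Ctsd 0.33 ± 0.12 (adjusted p = 0.263). Glb1 gave -0.33 ± 0.12 (adjusted p = 0.282). None of these 4 passed the test, so a change of their diet difference with time is not shown. Among the macrophage markers 4 were called higher in this test, Cd68, C1qa, Lyz2 and Gpnmb, with 1.05 ± 0.20 for Cd68 (adjusted p = 0.0155). With the spike-in level as a covariate 0 of all probe sets were called in the interaction, so these 4 calls ended there too.

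**Figure D5:**
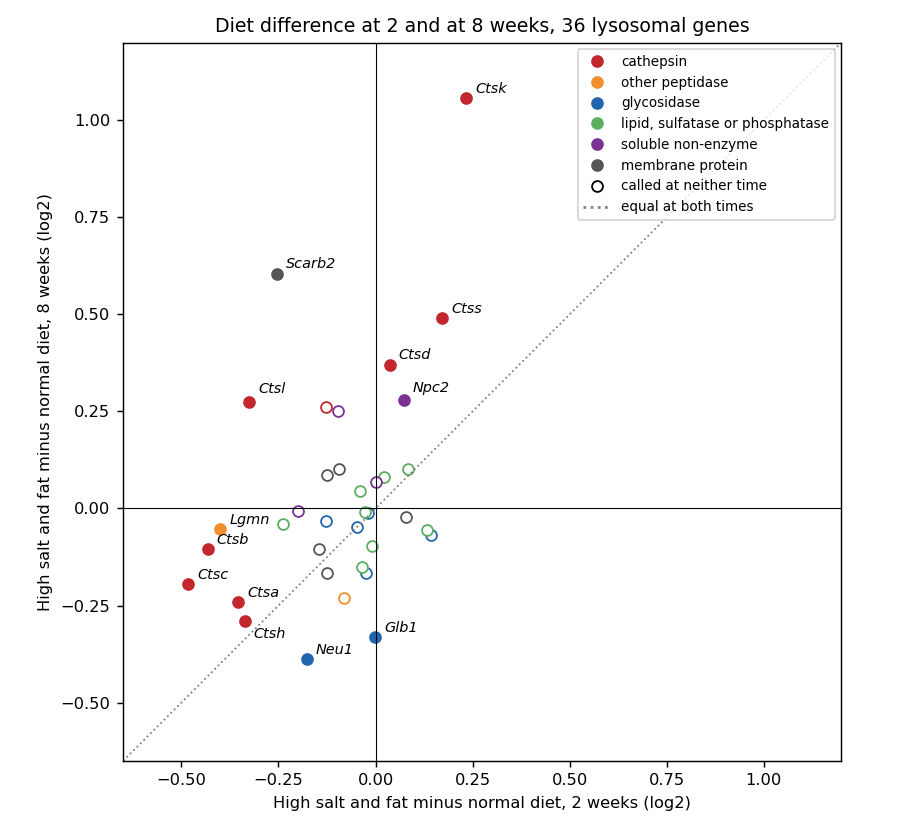
Difference of log2(signal + 7.21), HSF minus ND, at 2 weeks (x axis) and 8 weeks (y axis) for 36 lysosomal genes, coloured by role, with named and filled points called at either time. Ctsl lies left of 0 and above 0, at -0.32 and 0.28, while Ctsh lies below 0 on both axes at -0.34 and -0.29.

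Cathepsins were also most of the calls over time on HSF. From 2 to 8 weeks on HSF 5 of 36 genes rose (Ctsd, Ctsl, Ctss, Ctsz and Scarb2) and 1 fell (Glb1), with 2.22% of all probe sets called higher and 1.3% lower. Scarb2, 1 of the 5, passed the filter only with the HSF arrays at 8 weeks. Ctsd gave 0.46 ± 0.09 (adjusted p = 0.00213) and Ctsl 0.37 ± 0.07 (adjusted p = 0.00282), and in both every kidney at 8 weeks was above every kidney at 2 weeks. Ctsz, an exopeptidase of the cathepsin family that was named after its values were seen, had signals of 87.9 to 115 (median 98) on HSF at 8 weeks, against 59.2 to 76.7 (median 62.5) on HSF at 2 weeks. Those groups did not overlap (0.57 ± 0.12, adjusted p = 0.00549), whereas its diet difference at 8 weeks was 0.26 ± 0.12 (adjusted p = 0.172). The 3 genes higher without overlap stand beside 1.15% of all probe sets tested. Scarb2 gave 0.89 ± 0.19 (adjusted p = 0.00725), Ctss 0.41 ± 0.10 (adjusted p = 0.0205) and Glb1 -0.40 ± 0.09 (adjusted p = 0.00938). Ctss lost this call in 4 of the 24 fits that left out 1 array, those without HSF arrays 3 or 4 at 2 weeks or 4 or 5 at 8 weeks (0.36 to 0.38). The macrophage markers moved with them: 9 of 13 rose with time on HSF.

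Time on ND gave 0 calls among the 36 genes in limma, with 1 lower at an unadjusted p under 0.05 and 0.0392% of all probe sets called. Age and time on the diet run together within each diet, and the comparisons over time share their arrays with the diet comparisons. Ctsl was at 2094 to 2695 on ND at 8 weeks, against 2655 to 3060 on ND at 2 weeks, with 5 of 6 kidneys at 8 weeks below the lowest at 2 weeks and a difference of -0.23 ± 0.07 (adjusted p = 0.285). It was the 1 gene at an unadjusted p under 0.05.

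The other lysosome lists were short, so their shares rest on at most 2 calls each. At 2 weeks 5.88% of V-ATPase genes and 11.1% of other hydrolases were lower, beside 4.19% of all probe sets, and 0 were higher. At 8 weeks these shares were 5.88% and 5.56%, beside 3.51%, again with 0 higher. Of the other membrane proteins 14.3% were higher at 8 weeks, beside 5.63%, and 0 were lower. Of the 17 V-ATPase genes tested, the pump that acidifies the lysosome, 1 fell at 2 weeks (Atp6v1b2, -0.32 ± 0.10, adjusted p = 0.0417) and 1 at 8 weeks (Atp6v1c1, -0.31 ± 0.10, adjusted p = 0.0463). Of the 18 other lysosomal hydrolases tested 2 fell at 2 weeks, the peptidases Dpp7 (-0.38 ± 0.08, adjusted p = 0.00456) and Scpep1 (-0.31 ± 0.07, adjusted p = 0.00293). Dpp7 also fell at 8 weeks (-0.35 ± 0.08, adjusted p = 0.00928), and it was the 1 call of that list there. Of the 14 other membrane proteins 0 were called at 2 weeks in limma, with 1 at an unadjusted p under 0.05, and 2 rose at 8 weeks, Cd68 and Laptm5, which are also on the macrophage list.

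Genes of sorting and uptake were called in both directions at 2 weeks and only lower at 8 weeks. The share called lower was 9.09% at each time, beside 4.19% and 3.51% of all probe sets. The share called higher was 4.55% at 2 weeks, beside 4.55%, and 0% at 8 weeks, beside 5.63%. Of 22, at 2 weeks Sort1, a sorting receptor, rose (0.40 ± 0.10, adjusted p = 0.0099), and Dab2, an endocytic adaptor (-0.49 ± 0.08, adjusted p = 0.000337), and Lrp2, which encodes megalin (-0.26 ± 0.07, adjusted p = 0.0259), fell. At 8 weeks Lrp2 (-0.33 ± 0.07, adjusted p = 0.00387) and Amn, a partner of cubilin (-0.25 ± 0.08, adjusted p = 0.0343), fell. Lrp2 is also on the proximal tubule list. Of 16 autophagy genes Bnip3 fell at 2 weeks (-0.36 ± 0.11, adjusted p = 0.0446), and of 13 genes of the TFEB family and its mTORC1 control Rragd fell (-0.52 ± 0.15, adjusted p = 0.0296). At 8 weeks both lists had 0 calls in limma, with 1 autophagy gene and 2 control genes lower at an unadjusted p under 0.05. Of 4 peptidase inhibitors tested, at 8 weeks Serpinb1a rose (0.21 ± 0.06, adjusted p = 0.0389) and Spink1 fell (-0.48 ± 0.12, adjusted p = 0.0141). The other 2, Cst3 (0.27) and Cstb, were not called at 8 weeks.

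Within groups, the SD of log2 values over 6 kidneys had medians from 0.12 to 0.16 across the 4 groups, with 0.02 for Laptm4a on ND at 2 weeks at the low end and 0.63 for Ctsk on HSF at 2 weeks at the high end.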

How the data were processed

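The data are 24 arrays of kidney RNA, 1 per animal, 6 per group. The authors deposited linear intensity values, MAS5 signals per the submitters' processing notes, for 15923 probe sets. The MAS5 version, scaling target and detection calls are not given in the sources used here. The trimmed mean without the outer 2% lay at 150.034 to 150.042 on every array. Replicates were separate animals, with correlations within groups of 0.958 to 0.981. Symbols came from the platform annotation, where 12783 probe sets had 1 symbol and 312 several, which were not named. 57 controls were left out of the test. Values were log2(signal + 7.21), 0.1 times the median array median, and were not normalized again. The filter asked for a signal over the array's 40th percentile (44.48 to 54.5) in at least 6 arrays, which left 10208 probe sets.

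limma 3.58.1 in R 4.3.3 fitted 1 mean per group to all 24 arrays (eBayes with trend), with 5 two-sided comparisons and Benjamini-Hochberg adjustment over the probe sets tested. All limma p-values printed are from that fit unless a setting is named. The number of arrays limits the precision. The procedure was tested on simulated data. Members, lists and tests were chosen with earlier results of these data known. Members called in a diet comparison or the interaction were described in full, with 6 bright uncalled members and up to 4 genes of smallest p from each other list. Other settings were other pseudocounts, filters, normalizations and fits, each array left out in turn and averaging a gene's probe sets. Omission of ND arrays 1 and 2 at 8 weeks and covariates for the spike-in level (18 control probe sets), the GAPDH 3' to 5' ratio and a fat index (Fabp4, Cfd and Car3) were chosen after seeing the data. No positions of probe sets are given, since the sources used here name no genome build for the annotation.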

Additional observations from a re-analysis of the deposited data

Results flagged for a closer look

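Among 144 sets of 6 kidneys (36 genes in 4 groups), 8 held a kidney far from the others, where chance gives about 1 in 20. On the high salt and fat diet at 2 weeks these were Hexa in array 2, at 853.4 against 702.5 to 739.1 in the other kidneys, and Arsa in array 3, at 189.1 against 327.4 to 388.9. On the normal diet at 2 weeks they were Ctsl in array 1 (3060.0, others 2655.3 to 2772.9), Ctss in array 4 (288.6, others 183.3 to 210.4), Glb1 in array 4 (958.3, others 750.3 to 800.6) and Smpd1 in array 3 (489.9, others 569.1 to 621.8). On the normal diet at 8 weeks they were Lamp1 in array 5 (2752.1, others 2243.6 to 2393.9) and Scarb2 in array 1 (23.6, others 47.4 to 63.0), which is 1 of the 2 arrays that stood apart at the dim end. The diet difference of Ctsl differed between 8 and 2 weeks by an interaction term, at 0.60 and 0.75 on the log2 scale for its 2 probe sets.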

How the results depend on the processing

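At 2 weeks 3 members were called lower with quantile normalization, with the spike-in level and with the GAPDH ratio as covariates, against 6. The GAPDH ratio ended the calls of Ctsa, Ctsc, Ctsh and Ctsl, so its 3 included a member outside the 6. The calls over all probe sets fell to 482, 328 and 232 with the spike-in level, GAPDH ratio and fat index, against 892. At 8 weeks 5 members were called lower when a gene's probe sets were averaged. Without ND arrays 1 and 2, the calls over all probe sets numbered 541, against 933, and 2 members were higher, and with the spike-in level 497 and 2. The interaction had 80 calls with array weights, 13 with the fat index, 4 with the GAPDH ratio and 0 with the spike-in level, which left 0 members, against 39. For time on HSF, 3 members were higher with a filter at the 60th percentile, and the calls were 632 with array weights and 223 with only the groups compared, against 360. Centring of arrays turned the share of higher calls there to 46.6%, against 63.1%. For time on ND the calls were 9 without ND arrays 1 and 2, 2 with centring, and 0 with no trend, only the groups compared or any covariate, against 4. With each array left out in turn the calls were 598 to 986, 543 to 1120, 22 to 50, 220 to 507 and 0 to 10 for diet at 2 weeks, diet at 8 weeks, the interaction, time on HSF and time on ND, and members called were 6 lower at 2 weeks, 4 to 6 higher and 2 to 5 lower at 8 weeks, 1 higher in the interaction, and 4 to 6 higher and 1 lower for time on HSF. Single arrays moved some counts by over 1.5 times: 5 members were lower at 8 weeks without ND array 2, the 8-week calls were 543 and 579 without HSF arrays 1 and 5, the interaction calls 22 without HSF array 3 of 8 weeks, and the calls for time on HSF 233 without array 3 of 2 weeks and 220 without array 5 of 8 weeks. For time on ND 11 of the arrays did so. Signs turned in uncalled differences: at 2 weeks Ctsd (-0.012), Ctsk (-0.17) and Ctsz (0.067) with the fat index, Npc2 (-0.020) with the spike-in level, and Glb1 with quantile normalization (0.021), array weights (0.039), the GAPDH ratio (0.0061) and without HSF array 5 or 6 or ND array 4 (-0.029 to 0.054 over all arrays left out). In the interaction they turned for Ctsa (-0.10) and Ctsh (-0.16) with quantile normalization, for Ctsa (-0.057) and Ctsh (-0.13) with the spike-in level, and for Ctsh (-0.0030) without ND arrays 1 and 2. The cause of these shifts was not tested. Replicate numbers gave deviations correlated at -0.10 to 0.16 between same-numbered arrays, so they share only a number, and the replicate number as a block gave 892, 922, 41, 354 and 5 calls in the 5 comparisons and changed no count of members. MAS5 signals without detection calls limit what can be said of dim genes such as Ctsk and Scarb2.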

Other observations

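Some markers of tissues next to the kidney or of blood cells also differed between the diets. At 2 weeks all 3 fat-cell markers tested fell on HSF, Car3 (-3.44 ± 0.65, adjusted p = 0.00116), Fabp4 (-2.58 ± 0.72, adjusted p = 0.0242) and Cfd (-1.87 ± 0.48, adjusted p = 0.0149), and 0 of the 3 were called at 8 weeks in limma or had an unadjusted p under 0.05. Of 4 liver markers tested Alb, albumin, fell at 2 weeks (-1.66 ± 0.41, adjusted p = 0.0116), where 2 differences were negative and 2 positive. Fga, a fibrinogen chain, rose at 8 weeks (1.58 ± 0.26, adjusted p = 0.000231). Its signals were 46.8 to 216.7 (median 80.8) on HSF, against 22.8 to 32.3 (median 27.4) on ND. These groups did not overlap, and 2.21% of all probe sets tested were higher without overlap. The ND signals lay below every filter signal (44.48 to 54.5). Whether Fga would pass the filter without the HSF arrays at 8 weeks was not tested. The 3 remaining liver markers went the other way at 8 weeks, down to -0.48 in Ttr. None of these was called in limma, and 2 were lower at an unadjusted p under 0.05. Cd4, the lymphocyte marker that passed the filter, which rat macrophages also carry, fell at 2 weeks (-0.40 ± 0.11, adjusted p = 0.016). Mmp9, a gelatinase on the osteoclast list, also fell at 2 weeks (-0.73 ± 0.21, adjusted p = 0.0279) and was not called at 8 weeks (0.14 ± 0.21).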
